A study of Rattus norvegicus with 18 samples.

Results

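Prdm1, Prdm14 and Tfap2c, the transcription factors known for specifying germ cells in the mouse, were taken as the lines of a rat expression table that carry these symbols, 3 of 32545 lines, and were followed in all 18 libraries. All libraries came from rats of the strain Crlj:WI with the genotype Prdm14-Venus, a fluorescent reporter of Prdm14 that every group carried. Primordial germ cells (PGC), from which sperm and eggs descend, gave 12 libraries, 2 at each of embryonic day (E) 9.5, E10.5, E11.5 and E12.5 without a label of sex, and 2 female and 2 male ones at E15.5. They were set against epiblast, the pluripotent layer from which the embryo and its germ line arise, with 3 libraries at E7.25 and 3 at E7.75, on each day 2 male and 1 female. Whether PGC were sorted on Venus, and whether the reporter disrupts an allele of Prdm14, is not given in the sources used here. If PGC were sorted on Venus, the level of Prdm14 was part of the choice of the cells. No label ties replicates to separate embryos, so p-values measure the spread between libraries, which may be technical.

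In the mouse embryo, BMP signals from the extraembryonic tissues, with WNT, lead a few posterior epiblast cells to switch on PRDM1, PRDM14 and AP-2 gamma, the product of Tfap2c. PRDM1 (also called BLIMP1) is a repressor that keeps the somatic programme of neighbouring mesoderm low, PRDM14 lowers the DNA methylation machinery and FGF receptor signalling, and AP-2 gamma acts with PRDM1 on germ cell genes. None is restricted to germ cells: PRDM1 also acts in endoderm and blood cells, PRDM14 in pluripotent cells, and AP-2 gamma in trophoblast and surface ectoderm.

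Of the 3 genes, Prdm1 had an entry in the RefSeq promoter table, and its sequence is shown because it lies before the start of a gene that was near 0 in epiblast and well expressed in PGC. The entry covers 250 bases before the annotated start, at chr20:49564089-49564338 of the RefSeq build GRCr8, on the minus strand, printed 5′ to 3′ in the direction of the gene.
Prdm1 promoter: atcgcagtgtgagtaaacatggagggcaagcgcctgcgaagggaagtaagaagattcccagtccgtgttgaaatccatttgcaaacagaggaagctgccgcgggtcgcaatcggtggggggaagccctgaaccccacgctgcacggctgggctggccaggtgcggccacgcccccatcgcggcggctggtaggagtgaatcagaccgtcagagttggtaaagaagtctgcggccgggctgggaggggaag
These letters were searched on both strands for 3 short motifs: GCCNNNGGC, read by AP-2 proteins, GGCGCC, a GC-rich box bound by SMAD proteins, and AGGTGTGA, a site read by the T-box factor T. None of the 3 motifs occurs in this window, so no base is in capitals. Among 33469 RefSeq promoter windows of the same length, 12.6% hold the first motif, 8.69% the second and 0.959% the third. Promoters of Prdm14 and Tfap2c are not shown.

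Values were RPKM, reads scaled to gene length and to the total mapped. Relative depth was read off the ratio that low values most often show between libraries: at E10.5 and E11.5 the 4 libraries had 20.7% to 22.9% of the depth found in E7.75 female epiblast, and the others 82.6% to 121%. Genes were tested with limma on log2(RPKM + 1) if at least 2 libraries had an RPKM of 1 or more. All 3 genes were among the 14865 that met this, each through its PGC libraries, and a fold change on this scale understates the change of low genes. Other germ cell markers (Nanos3, Dnd1, Dppa3, Kit, Dazl and Ddx4) summed to 185 to 1620 RPKM in PGC, with a median of 713, against 20.8 to 42.5 RPKM in epiblast. Of the epiblast markers, Dnmt3b had 3.04 to 26.2 RPKM in PGC, against 915 to 1343 RPKM in epiblast, and Tdgf1 had 0 to 52.0 RPKM in PGC, against 469 to 1199 RPKM in epiblast. Utf1 overlapped, with 274 to 1982 RPKM in PGC, against 1080 to 1626 RPKM in epiblast, and Fgf5 was listed at 0 in every library.

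The first comparison asked how far the 3 factors set PGC apart from epiblast. All 3 were higher in PGC, Tfap2c by the most and Prdm14 by the least, and all 3 were at or near 0 RPKM in most epiblast libraries. Of all genes tested, 58.5% passed and 32.1% were higher in PGC, so 3 of 3 is read against that share. Where groups are said below not to overlap, the share of all genes for which this holds was not counted.

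**Figure D1:**
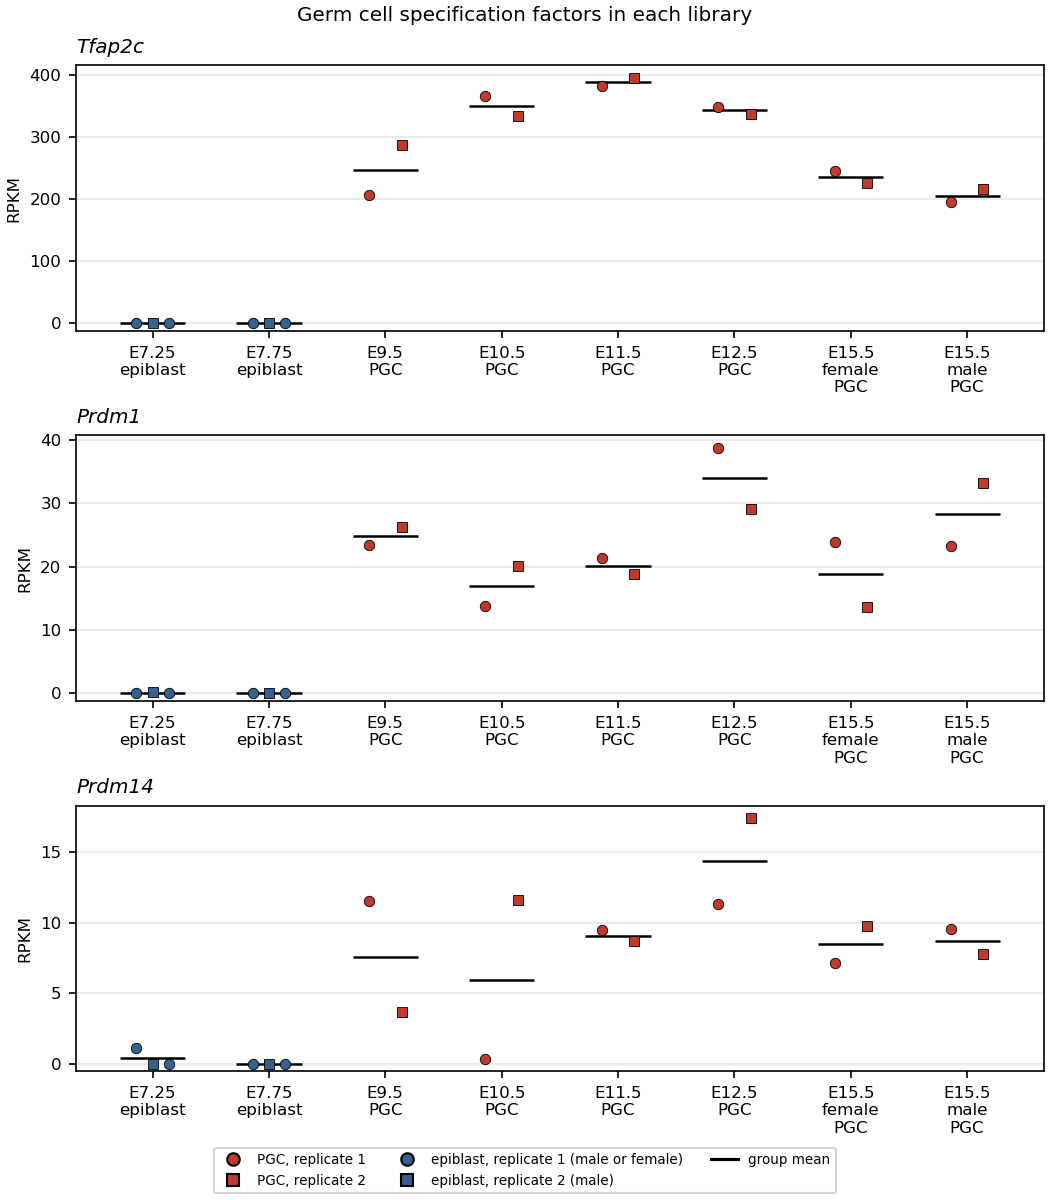
RPKM (linear axes from 0) of Tfap2c, Prdm1 and Prdm14 in each of 18 libraries, by group, with replicate 1 as circles, replicate 2 as squares, PGC in red, epiblast in blue and group means as bars. Tfap2c lies between 196 and 396 RPKM in PGC, and the replicates of Prdm14 lie far apart at E10.5, at 0.299 and 11.6 RPKM.

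Tfap2c (ENSRNOG00000005246) had 206 and 287 RPKM in PGC at E9.5, 366 and 334 at E10.5, 383 and 396 at E11.5, 350 and 337 at E12.5, 245 and 226 in females at E15.5, and 196 and 216 in males at E15.5. In epiblast it was listed at 0 in 3 of 6 libraries and had 0.639, 0.0234 and 0.0774 RPKM in the other 3. The lowest PGC library stood far above the highest epiblast library, and the groups did not overlap. Tfap2c averaged 295 ± 74.3 RPKM in PGC (SD, n = 12), which placed it at ranks 266 to 727 of 14865 genes from the top in these libraries. It rose in PGC against epiblast by 8.02 ± 0.11 on the log2 scale (limma, SE, adjusted p = 2.97e-15).

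Prdm1 (ENSRNOG00000000323) had 23.4 and 26.2 RPKM in PGC at E9.5, 13.7 and 20.1 at E10.5, 21.4 and 18.9 at E11.5, 38.8 and 29.1 at E12.5, 23.9 and 13.6 in females at E15.5, and 23.3 and 33.1 in males at E15.5. In epiblast it was listed at 0 in 3 of 6 libraries and had 0.242, 0.122 and 0.119 RPKM in the other 3. The groups did not overlap, and every PGC library had a level that is moderate for this table, at ranks 3507 to 6147 from the top. Prdm1 averaged 23.8 ± 7.35 RPKM in PGC (SD, n = 12) and rose against epiblast by 4.47 ± 0.16 on the log2 scale (limma, SE, adjusted p = 2.63e-11).

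Prdm14 (ENSRNOG00000021792) had 11.5 and 3.64 RPKM in PGC at E9.5, 0.299 and 11.6 at E10.5, 9.46 and 8.70 at E11.5, 11.3 and 17.4 at E12.5, 7.17 and 9.73 in females at E15.5, and 9.54 and 7.80 in males at E15.5. In epiblast it was listed at 0 in 5 of 6 libraries and had 1.11 RPKM in male replicate 1 of E7.25. The groups overlapped in 1 place, since replicate 1 of E10.5 PGC lay below that epiblast library. Prdm14 averaged 9.02 ± 4.26 RPKM in PGC (SD, n = 12) and rose against epiblast by 2.94 ± 0.39 on the log2 scale (limma, SE, adjusted p = 1.63e-05). Without E10.5 PGC replicate 1 the rise was 3.21 on the log2 scale.

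Within every PGC library the factors kept 1 order, with Tfap2c above Prdm1 and Prdm1 above Prdm14 in 12 of 12 by RPKM, which is a level per length. The level of Tfap2c was 6.53 to 26.7 times that of Prdm1, with a median of 11.3 over the 12 libraries. The level of Prdm1 was 1.40 to 45.8 times that of Prdm14, with a median of 2.36. The widest of these ratios, 45.8, belongs to replicate 1 of E10.5.

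That E10.5 library stands apart for Prdm14. Its replicates differ by 3.28 in log2(RPKM + 1), and 0.989% of all tested genes differed by more between the same libraries. Among the 3060 genes with mean levels of 2.98 to 11.9 RPKM there, 65 genes, or 2.12%, differed by more, with a median difference of 0.618. Prdm1 and Tfap2c differed by 0.52 and 0.13 between the same replicates. Other germ cell markers summed to 277 RPKM in that library, against 338 RPKM in replicate 2, and relative depth was 20.7% against 22.1%. The part of depth in the low Prdm14 value was not tested.

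Between E7.75 and E7.25 epiblast most values of the 3 factors were 0, so this test could hardly pass and says little about them. The log2 differences, E7.75 minus E7.25, were -0.11 ± 0.26 for Prdm1 (limma, adjusted p = 1), -0.36 ± 0.63 for Prdm14 (adjusted p = 1) and -0.19 ± 0.18 for Tfap2c (adjusted p = 0.896). Of all genes, 0.269% passed in this comparison. In bulk samples, fewer cells of a type and less RNA per cell cannot be told apart, so values near 0 do not say how many epiblast cells held these transcripts.

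All 3 factors rose in the next interval, between E7.75 epiblast and E9.5 PGC. At E9.5 Tfap2c averaged 247 ± 57.1 RPKM and Prdm1 averaged 24.8 ± 1.98 RPKM (SD, n = 2). No PGC library overlapped an E7.75 epiblast library for any of the 3 genes, but groups this small can separate by chance. Relative to E7.75 epiblast, Tfap2c rose by 7.89 ± 0.20 on the log2 scale (limma, SE, adjusted p = 1.56e-11), Prdm1 by 4.63 ± 0.29 (adjusted p = 8.39e-08) and Prdm14 by 2.93 ± 0.71 (adjusted p = 0.00678). At this step 27.6% of all genes passed and 16.3% were higher. The call for Prdm14 rests on replicate 1 of E9.5, with 11.5 RPKM: without it the difference was 2.22 on the log2 scale (limma, adjusted p = 0.0887). No library lies between E7.75 and E9.5, so the time of onset is not analysed here.

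The E9.5 libraries also carried markers of other cells. Markers of extraembryonic mesoderm and allantois (6 genes, among them Hand1) summed to 390 and 386 RPKM at E9.5, against 0.661 to 3.92 RPKM in epiblast, and were 6.03 to 40.1 RPKM in the other PGC libraries. Hand1 was the largest part of the E9.5 sums, at 245 to 261 RPKM. Endothelial markers (5 genes) summed to 112 and 28.6 RPKM, against 0 to 0.641 RPKM in epiblast. Of these 5, 3 were higher than in E7.75 epiblast and 2 did not pass. Kdr had 25.3 to 55.2 RPKM at E9.5 and made up most of the lower sum, while Cldn5 had 0 to 27.4 RPKM and Cdh5 0 to 2.83 RPKM. Mesenchymal markers (6 genes) summed to 57.9 and 51.3 RPKM, against 0.0461 to 3.76 RPKM in epiblast, and surface ectoderm markers (5 genes) to 33.1 and 27.98 RPKM, against 2.85 to 7.39 RPKM. Most of the surface ectoderm sum was Wnt6, at 19.0 to 25.2 RPKM. Of 4 tested surface ectoderm markers 1 was higher than in E7.75 epiblast and 3 did not pass. Col1a2 (mesenchyme) and Krt5 (surface ectoderm) were listed at 0 in both E9.5 libraries. Endoderm markers (8 genes) overlapped with epiblast, at 35.0 and 60.9 RPKM at E9.5, against 11.9 to 39.6 RPKM in epiblast. Of these 8, Sox17 rose to 37.4 ± 8.11 RPKM at E9.5, against 0.683 ± 0.580 RPKM in E7.75 epiblast (limma, adjusted p = 8.19e-05), Apoa2 fell, and 6 did not pass. Markers of trophoblast and extraembryonic ectoderm overlapped as well, at 89.1 and 38.7 RPKM at E9.5, against 29.9 to 55.5 RPKM in epiblast. Of these, Cdx2 and Plet1 rose against E7.75 epiblast, Eomes and Ascl2 fell, and Elf5 and Tpbpa were listed at 0 in both E9.5 libraries. The part of these markers in the E9.5 levels was not tested. Without both E9.5 libraries, the rises in PGC against epiblast were 8.07 for Tfap2c, 4.44 for Prdm1 and 2.97 for Prdm14 on the log2 scale, all 3 past the threshold, and from E10.5 on endothelial and mesenchymal markers summed to at most 8.99 and 4.40 RPKM.

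**Figure D2:**
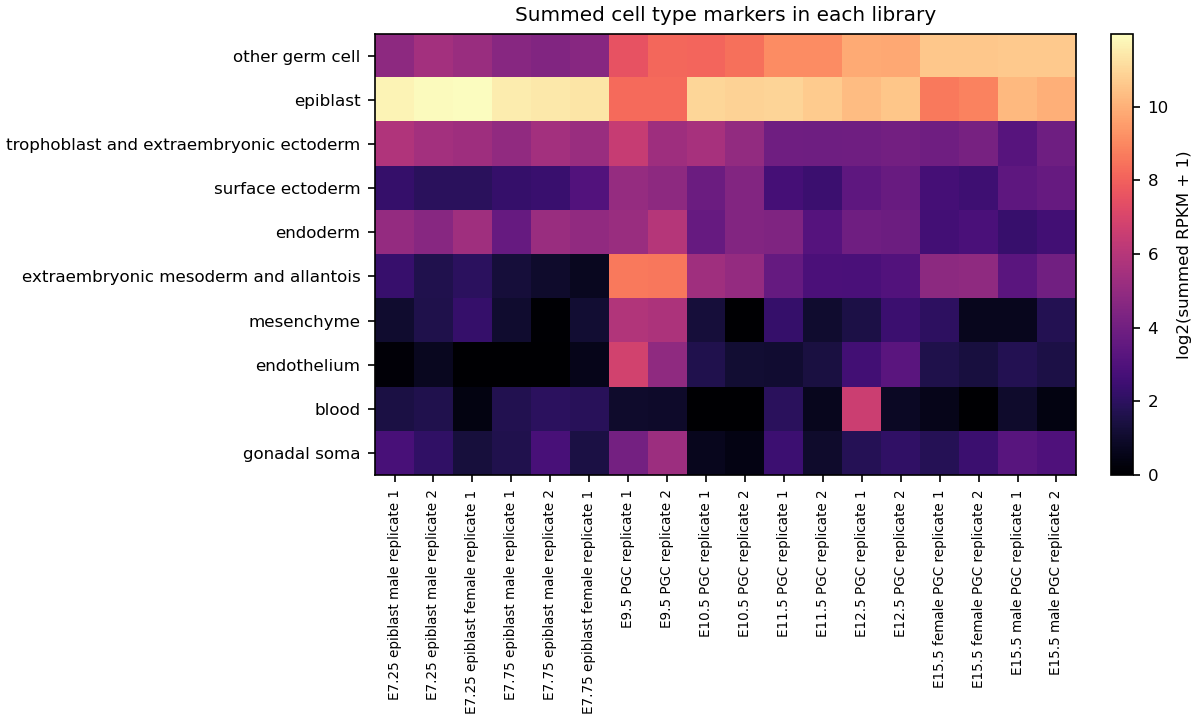
Summed RPKM of marker genes, as log2(summed RPKM + 1) on the colour scale, for 10 cell types (rows) in each of 18 libraries (columns). Markers of extraembryonic mesoderm are highest in the E9.5 PGC libraries, at 390 and 386 RPKM, and other germ cell markers are highest at E15.5.

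Among PGC, the comparison of 6 groups asked whether the levels changed once germ cells were formed. Tfap2c differed among the groups (limma moderated F = 5.98, adjusted p = 0.00973), Prdm1 (F = 2.86, adjusted p = 0.0888) and Prdm14 (F = 1.304, adjusted p = 0.38) did not pass, and 55.6% of all genes passed this test. The difference for Tfap2c did not pass without the E10.5 and E11.5 libraries (adjusted p = 0.112) or with quantile normalization (adjusted p = 0.0504), and not with a pseudocount of 0.1 RPKM (adjusted p = 0.727). That for Prdm14 passed only without replicate 2 of E10.5 (adjusted p = 0.00421), and that for Prdm1 passed without replicate 1 of E15.5 females (adjusted p = 0.0401) and with a pseudocount of 5 RPKM (adjusted p = 0.0414).

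Tfap2c was highest at E11.5, with a mean of 390 RPKM, ahead of 350 RPKM at E10.5 and 343 RPKM at E12.5, then 247 RPKM at E9.5, 235 RPKM in E15.5 females and 206 RPKM in E15.5 males. Libraries of E11.5 did not overlap those of E10.5, those of E12.5 did not overlap those of E9.5, and those of E15.5 females did not overlap those of E15.5 males, while E10.5 and E12.5 overlapped, as did E9.5 and E15.5 females. With so few libraries per group such gaps often arise by chance, here and for Prdm1 and Prdm14 below, so they do not establish an order. The step from E10.5 to E11.5 was 0.16 ± 0.22 on the log2 scale (limma, adjusted p = 0.771). At the main settings no single step passed. Tfap2c differed by 0.52 ± 0.22 on the log2 scale between E10.5 and E9.5 (limma, adjusted p = 0.0878), by -0.74 ± 0.22 between E15.5 males and E12.5 (adjusted p = 0.0511) and by -0.54 ± 0.22 between E15.5 females and E12.5 (adjusted p = 0.103). Each of these values passed with a pseudocount of 5 RPKM, with adjusted p = 0.0118, 0.00396 and 0.0137 in that order. The difference between E15.5 males and E12.5 lay at the threshold: it passed in 7 of 27 alternatives, with a range of -0.82 to -0.66 on the log2 scale and the same direction in all 27.

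Prdm1 was highest at E12.5, with a mean of 33.9 RPKM, then 28.2 RPKM in E15.5 males, 24.8 RPKM at E9.5, 20.2 RPKM at E11.5, 18.8 RPKM in E15.5 females and 16.9 RPKM at E10.5. Between neighbours in this order, libraries failed to overlap only between E9.5 and E11.5. The step to E12.5, 0.71 ± 0.31 on the log2 scale against E11.5, did not pass (limma, adjusted p = 0.21). E12.5 replicate 1, the highest library for Prdm1, also held the embryonic globin Hbe1 at 97.4 RPKM, against 0 RPKM in replicate 2. Of the other 4 blood markers, Klf1 was alike in both replicates, at 0.761 and 0.741 RPKM, and Gata1, Hbb and Ptprc were listed at 0 in both. The part of blood cells in that level of Prdm1 was not tested, and without replicate 1 the step was 0.51 on the log2 scale.

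Prdm14 was likewise highest at E12.5, with a mean of 14.4 RPKM, then 9.08 RPKM at E11.5, 8.67 RPKM in E15.5 males, 8.45 RPKM in E15.5 females, 7.59 RPKM at E9.5 and 5.95 RPKM at E10.5. E12.5 did not overlap E11.5, and all later neighbours in this order overlapped. None of the steps passed: the log2 differences were -0.91 ± 0.78 between E10.5 and E9.5 (limma, adjusted p = 0.416), 1.32 ± 0.78 between E11.5 and E10.5 (adjusted p = 0.352) and 0.58 ± 0.78 between E12.5 and E11.5 (adjusted p = 0.761). Replicates of E10.5 decide the first 2 of these: E10.5 minus E9.5 was -2.55 without replicate 2 (adjusted p = 0.00597) and 0.72 without replicate 1, and E11.5 minus E10.5 was 2.95 without replicate 2 (adjusted p = 0.011) and -0.32 without replicate 1.

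**Figure D3:**
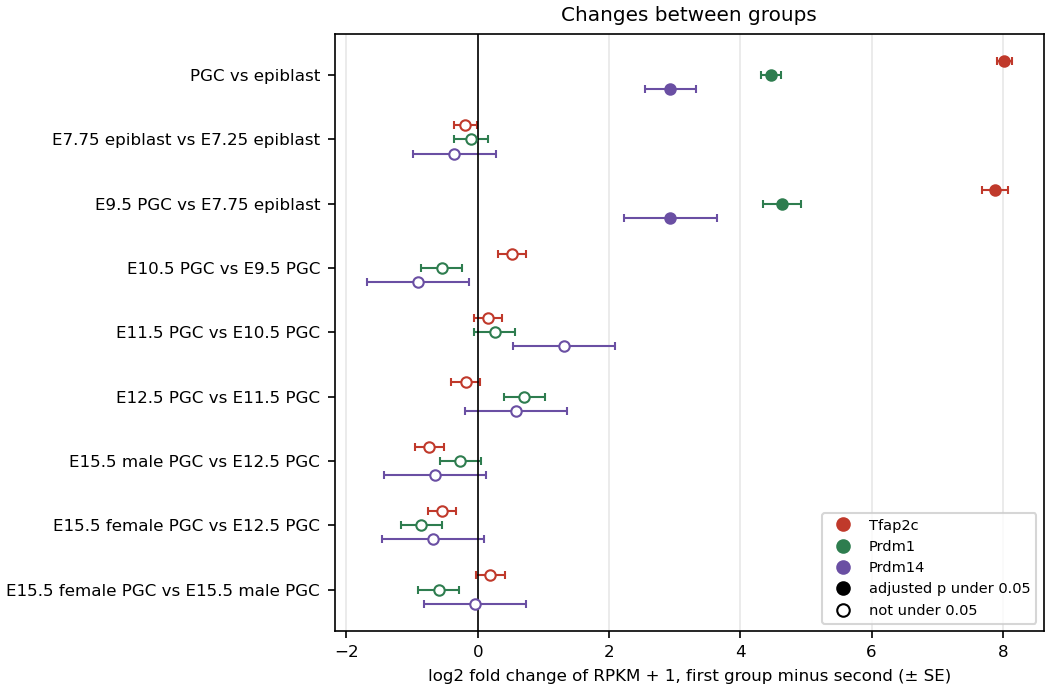
Log2 fold change of RPKM + 1 (horizontal axis, first group minus second, ± SE) of Tfap2c, Prdm1 and Prdm14 in 9 comparisons, filled where the adjusted p is under 0.05. Filled points stand in the 2 comparisons of PGC with epiblast, and the other 7 hold open points.

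For the remaining steps among PGC, the background shares of genes that passed were 29.9% for E10.5 against E9.5, 7.19% for E11.5 against E10.5, 7.21% for E12.5 against E11.5, 8.73% for E15.5 males against E12.5, 18.4% for E15.5 females against E12.5 and 9.68% for E15.5 females against males, and none of the 3 genes passed in any of them. Prdm1 in E15.5 females against E12.5 differed by -0.86 ± 0.31 on the log2 scale (limma, adjusted p = 0.073). E15.5 females and males did not differ past the threshold, by -0.60 ± 0.31 for Prdm1 (adjusted p = 0.283), -0.04 ± 0.78 for Prdm14 (adjusted p = 1) and 0.19 ± 0.22 for Tfap2c (adjusted p = 0.686), which does not show equal levels. By the library levels given above, all 3 transcripts were present in PGC of both sexes at E15.5.

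The relatives of these factors in their gene families give a view of how much of each family they supply. Prdm1 supplied 28.8% to 50.9% of the summed RPKM of the PRDM family in PGC, with a median of 36.7%, against at most 0.672% in epiblast. Prdm14 supplied 1.11% to 21.8% in PGC, against at most 3.54% in epiblast. Of the 13 other PRDM genes, 7 were tested, 1 was higher in PGC (Mecom, also called Prdm3), 0 were lower and 6 did not pass, with a median log2 change of 0.03 against 0.09 over all genes. Of all genes tested, 32.1% were higher and 26.4% were lower. Mecom itself was low, at 0.940 ± 0.795 RPKM in PGC and below 1 in each epiblast library. Prdm4, which was the most abundant relative, averaged 15.8 ± 7.84 RPKM in PGC and 14.1 ± 4.31 RPKM in epiblast (limma, adjusted p = 0.944). Prdm6 rose at E9.5 against E7.75 epiblast by 2.34 ± 0.28 on the log2 scale (limma, adjusted p = 2.93e-05) and was listed at 0 in both E10.5 libraries.

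Tfap2c made up 99.2% to 100% of the summed RPKM of the AP-2 family in each PGC library. Of its 4 relatives, Tfap2e was tested and rose to 0.845 ± 0.582 RPKM in PGC (SD, n = 12), by 0.56 ± 0.22 on the log2 scale (limma, adjusted p = 0.037; adjusted p = 0.0798 without the E9.5 libraries). Tfap2d was listed at 0 in every library, and Tfap2a and Tfap2b averaged 0.0254 and 0.0194 RPKM in PGC.

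**Figure D4:**
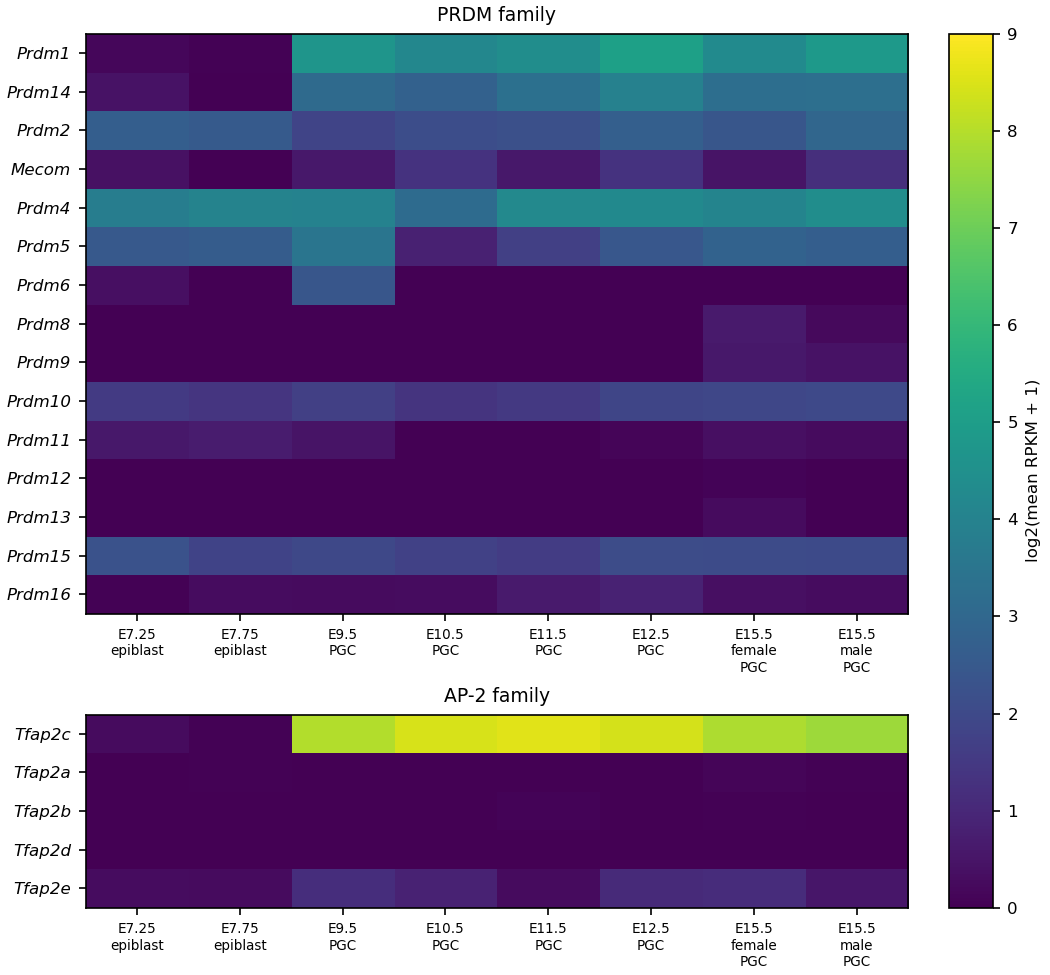
Mean level, as log2(mean RPKM + 1) on the colour scale, of 15 PRDM genes and 5 AP-2 genes (rows) in 8 groups (columns). In the PGC columns Prdm1 and Prdm14 brighten against epiblast while Prdm4 is bright throughout, and Tfap2c is the bright row among AP-2 genes.

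A list of 14 tested BMP and WNT genes held signals and their effectors that lie upstream of the 3 factors in the mouse. It also held Id1, Id2 and Id3, which are targets of BMP and not upstream signals. In PGC against epiblast 9 were higher, 1 was lower and 4 did not pass, with a median log2 change of 0.65 against 0.09 over all genes. Of all genes tested, 32.1% were higher and 26.4% were lower. The ligand Bmp4 rose to 119 ± 74.4 RPKM in PGC, against 7.98 ± 3.72 RPKM in epiblast, by 3.36 ± 0.16 on the log2 scale (limma, adjusted p = 4.8e-10). The T-box factor T, which in the mouse lies between WNT and Prdm1 and is also on the somatic list below, rose by 3.08 ± 0.29 (adjusted p = 4.96e-07). Ctnnb1, the WNT effector beta-catenin, fell by 0.51 ± 0.19 on the log2 scale (adjusted p = 0.0329), and Smad4, the shared SMAD partner, did not pass, at 40.4 ± 12.1 RPKM in PGC and 35.9 ± 4.11 RPKM in epiblast. Bmp8a, Bmp8b and Wnt3a were under the level filter.

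Of 9 tested genes for proteins known to act with the 3 factors, 4 were higher, 2 were lower and 3 did not pass, with a median log2 change of -0.16 against 0.09 over all genes. These counts are close to the shares over all genes, where 32.1% were higher and 26.4% were lower. Cbfa2t2, a co-repressor that PRDM14 binds in the mouse, rose to 28.8 ± 9.10 RPKM in PGC, against 12.04 ± 2.47 RPKM in epiblast, by 1.15 ± 0.13 on the log2 scale (limma, adjusted p = 2.67e-06). Prmt5, the arginine methyltransferase found with PRDM1 in mouse germ cells, fell to 129 ± 31.6 RPKM in PGC, against 172 ± 9.79 RPKM in epiblast, a log2 change of -0.45 ± 0.06 (adjusted p = 1.99e-05). Suz12, of the Polycomb complex, rose by 0.76 ± 0.13 (adjusted p = 0.000214). Of the inhibitors of AP-2 proteins, Kctd15 fell by 0.57 ± 0.17 (adjusted p = 0.0116), while Kctd1 rose to 4.94 ± 2.11 RPKM in PGC, against 0.375 ± 0.329 RPKM in epiblast, by 2.06 ± 0.17 (adjusted p = 1.8e-07). Eed, another Polycomb subunit, did not pass, at 87.4 ± 16.3 RPKM in PGC and 96.7 ± 9.66 RPKM in epiblast.

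Genes that PRDM14 lowers in mouse cells were mostly lower in rat PGC. Of 7 tested, 5 were lower, 1 was higher and 1 did not pass, with a median log2 change of -1.74 against 0.09 over all genes, where 26.4% of all genes were lower. The de novo DNA methyltransferase Dnmt3b fell to 11.4 ± 6.12 RPKM in PGC, against 1110 ± 148 RPKM in epiblast, a log2 change of -6.63 ± 0.20 (limma, adjusted p = 7.14e-12). Dnmt3a, its close relative, fell to 6.88 ± 5.19 RPKM in PGC, against 178 ± 23.1 RPKM in epiblast, and Dnmt3l, Uhrf1 and Ehmt1 fell by 4.37, 1.74 and 0.59 on the log2 scale. Dnmt3b was also on the list of epiblast markers.

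The 2 FGF receptors on the same list were not among those that fell. Fgfr2 rose to 19.4 ± 11.004 RPKM in PGC, against 4.09 ± 1.55 RPKM in epiblast, by 1.82 ± 0.20 on the log2 scale (limma, adjusted p = 2.2e-06), and Fgfr1 did not pass, at 31.2 ± 8.09 RPKM in PGC and 34.2 ± 4.29 RPKM in epiblast. Within PGC, Fgfr2 was lower in E15.5 females, with 4.40 ± 0.887 RPKM, than at E12.5, with 34.8 ± 2.04 RPKM (adjusted p = 0.000276), and than in E15.5 males, with 17.2 ± 3.62 RPKM (adjusted p = 0.0116). Dnmt3a fell likewise to 1.41 ± 1.33 RPKM in E15.5 females, against 16.8 ± 1.62 RPKM at E12.5 (adjusted p = 2.61e-05). Before that, Dnmt3a rose to its E12.5 level from 5.87 ± 0.574 RPKM at E11.5 (limma, adjusted p = 0.0189). Myc, from the somatic list below, fell to 2.42 ± 0.139 RPKM in E15.5 females, against 22.9 ± 1.73 RPKM at E12.5 (adjusted p = 0.000808). Uhrf1, which recruits maintenance methylation, was higher in E15.5 females, with 28.3 ± 10.2 RPKM, than in males, with 10.04 ± 2.40 RPKM (adjusted p = 0.00883). Against E12.5, with 21.1 ± 3.63 RPKM, Uhrf1 fell in males (limma, adjusted p = 0.0467) and did not pass in females (adjusted p = 0.442). Earlier, Uhrf1 rose to 26.0 ± 5.30 RPKM at E11.5, against 11.1 ± 3.37 RPKM at E10.5 (limma, adjusted p = 0.0283).

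Somatic genes that PRDM1 keeps low in mouse germ cells had a peak at E9.5. Of 6 tested, 5 rose in E9.5 PGC against E7.75 epiblast, 0 were lower and Myc did not pass, with a median log2 change of 4.15 against 0.04 over all genes. At this step 16.3% of all genes were higher. Snai1, a mesoderm regulator, rose to 78.0 ± 5.92 RPKM at E9.5, against 3.74 ± 2.61 RPKM in E7.75 epiblast (limma, adjusted p = 4.84e-05), Fgf8 rose to 107 ± 8.97 RPKM, against 23.6 ± 23.1 RPKM (adjusted p = 0.0213), and Hoxb2 rose to 20.8 ± 0.0835 RPKM and was listed at 0 in all 3 E7.75 libraries (adjusted p = 2.17e-05). At these same libraries markers of extraembryonic mesoderm and mesenchyme were high, as given above.

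Of the same 6 genes, 5 fell at E10.5 against E9.5 and T did not pass, with a median log2 change of -3.54 against -0.16 over all genes, where 18.4% of genes were lower. The median over all genes was 0.03 with quantile normalization and -0.01 with upper quartile scaling. Snai1 fell to 0.994 ± 1.41 RPKM at E10.5, against 78.0 ± 5.92 RPKM at E9.5 (limma, adjusted p = 1.96e-05), and Fgf8 fell to 3.23 ± 2.54 RPKM, against 107 ± 8.97 RPKM (adjusted p = 0.000645). T had 22.2 ± 0.709 RPKM at E10.5, against 59.5 ± 3.55 RPKM at E9.5 (adjusted p = 0.0855). Markers of extraembryonic mesoderm had sums of 40.1 and 31.7 RPKM at E10.5, against 390 and 386 RPKM at E9.5. Most of the E10.5 sums was Hand1, at 30.4 to 36.7 RPKM, while Pitx1, Tbx20 and Foxf1 were listed at 0 in both libraries. The part of these markers in the differences was not tested. Prdm1 itself differed by -0.55 ± 0.31 on the log2 scale between E10.5 and E9.5 (adjusted p = 0.214).

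Over all PGC against epiblast, the somatic list gave 3 genes higher, 1 lower and 2 not passed, with a median log2 change of 0.84. Among all genes tested, 32.1% were higher and 26.4% were lower in that comparison. Without the E9.5 libraries the somatic list gave 2 higher (T and Hoxb1), 2 lower (Myc and Fgf8) and 2 not passed, with a median of 0.15 against 0.07 over all genes. For the PRDM14 list the same omission left 1 higher, 5 lower and 1 not passed, with a median of -1.76.

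**Figure D5:**
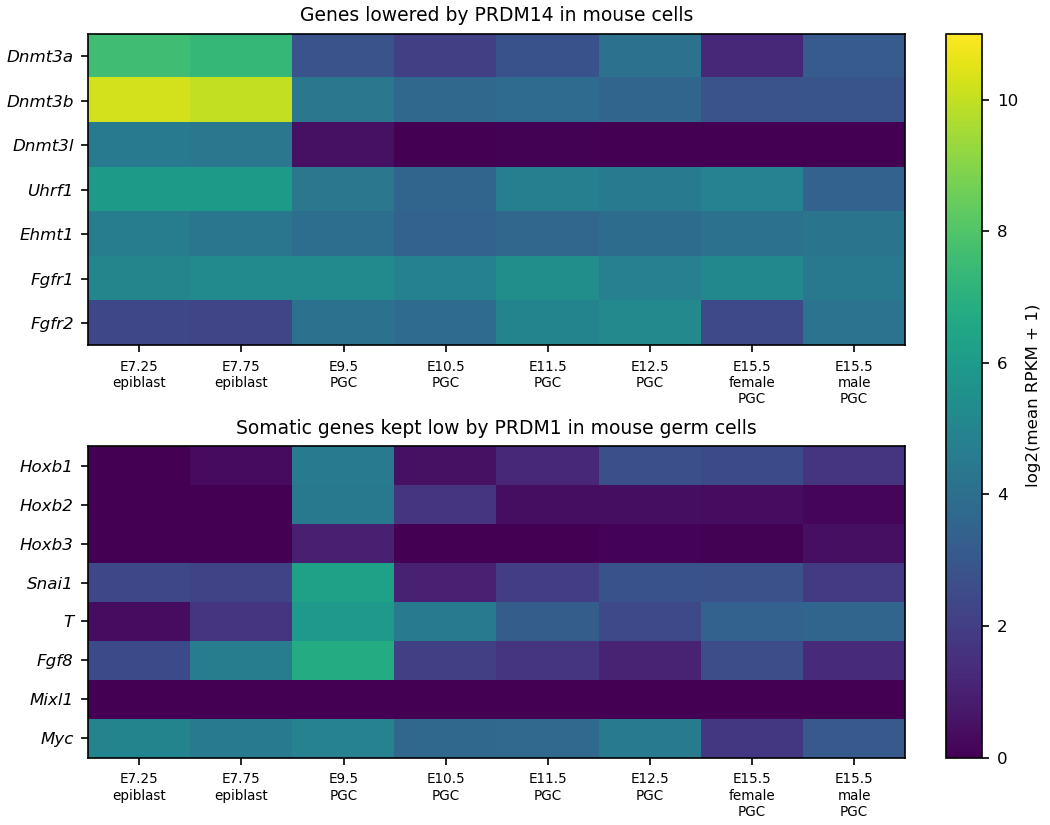
Mean level, as log2(mean RPKM + 1) on the colour scale, of 7 genes that PRDM14 lowers in mouse cells and 8 somatic genes that PRDM1 keeps low in mouse germ cells (rows) in 8 groups (columns). Dnmt3b is bright in epiblast, at 1110 RPKM, and Snai1, T and Fgf8 are brightest in the E9.5 column, at 78.0, 59.5 and 107 RPKM.

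Other genes of germ cell specification and identity that were tested all differed between PGC and epiblast by limma: of 13, 10 were higher and 3 were lower, with a median log2 change of 2.51. Over all genes 58.5% passed, 32.1% were higher and 26.4% were lower, with a median of 0.09. Of 16 listed, Tcl1 was not found by symbol, and Itgb3 and Tfcp2l1 were under the level filter. They averaged 0.171 and 0.0347 RPKM in PGC, against 0 and 0.0305 RPKM in epiblast. Nanos3, an RNA-binding protein needed for survival of PGC in the mouse, rose to 99.2 ± 40.0 RPKM in PGC, against 1.24 ± 1.45 RPKM in epiblast, by 5.60 ± 0.25 on the log2 scale (adjusted p = 3.29e-10). Kit, the receptor for stem cell factor, rose by 3.69 ± 0.25 (adjusted p = 2.27e-08). Lin28a, which blocks let-7 microRNA maturation, fell to 79.4 ± 45.2 RPKM in PGC, against 404 ± 31.7 RPKM in epiblast (adjusted p = 9.54e-12), and Pou5f1, the pluripotency factor OCT4, fell to 213 ± 80.6 RPKM, against 533 ± 235 RPKM (adjusted p = 0.000122). In the step to E9.5, 7 of the 13 were higher, 2 were lower and 4 did not pass, where 27.6% of all genes passed and 16.3% were higher.

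Within PGC, counts of these 13 identity genes that passed were near the background shares. They were 3 for E10.5 against E9.5 (29.9% of all genes), 1 for E11.5 against E10.5 (7.19%) and 1 for E12.5 against E11.5 (7.21%). Against E12.5 they were 2 in E15.5 males (8.73%) and 4 in E15.5 females (18.4%), and 1 passed in E15.5 females against males (9.68%). Sox2 rose to 153 ± 6.31 RPKM at E10.5, against 45.5 ± 15.8 RPKM at E9.5 (limma, adjusted p = 0.000375), and Alpl, the alkaline phosphatase that stains PGC, rose to 148 ± 18.2 RPKM, against 28.3 ± 4.604 RPKM (adjusted p = 1.36e-05). Lin28a fell to 34.6 ± 11.01 RPKM at E10.5, against 170 ± 10.1 RPKM at E9.5 (adjusted p = 7.92e-07), and rose again at E11.5, to 75.2 ± 0.282 RPKM (adjusted p = 0.00122). Nanog fell to 21.2 ± 5.46 RPKM in E15.5 females, against 116 ± 22.9 RPKM at E12.5 (adjusted p = 0.0197), Sox2 fell likewise to 54.1 ± 4.03 RPKM, against 120 ± 1.32 RPKM (adjusted p = 0.0118), and Cd9 rose. Esrrb fell in both sexes at E15.5 against E12.5, by 2.39 ± 0.41 on the log2 scale in males and by 2.04 ± 0.41 in females. Dppa3 was higher in E15.5 females, with 61.6 ± 17.2 RPKM, than in males, with 0.395 ± 0.00903 RPKM (adjusted p = 0.00295), and at E12.5 it was higher than at E11.5, but this gene has near-identical copies and its values are uncertain.

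Among 11091 tested genes whose mean reached 5 RPKM in some group, those whose log2 levels followed each factor most closely over the 18 libraries were named by Pearson's r, a description that the gap between epiblast and PGC dominates. Closest to Tfap2c were Gfra3 (r = 0.99), Ddx58, Tspan8, Parp12 and Tmem132c. Closest to Prdm1 were Parp12 (r = 0.99), Gbp2, Ddx58, Trim5 and Bmp7, so that Parp12 and Ddx58 stood in both lists. Closest to Prdm14 were Adam17 (r = 0.94), Pnpt1, Usp4, Snx14 and LOC306766. Gfra3, a GDNF family receptor, had 57.6 ± 14.5 RPKM in PGC, against 0.271 ± 0.152 RPKM in epiblast, and Parp12 had 55.3 ± 18.6 RPKM in PGC and was listed at 0 in all 6 epiblast libraries.

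Over the 12 PGC libraries alone, with 11065 candidates, other genes led. They were Ephb6 (r = 0.96), Adam19, LOC691153, Svil and Crym for Tfap2c, and Fbxo38 (r = 0.93), Gabpb2, Slc16a1, Dtl and Zc3hav1 for Prdm1. For Prdm14 they were Ostm1 (r = 0.90), Fbxw7, the small RNA gene SNORD88, AABR07049695.4 and Slc50a1. The libraries share depth within days, and no gene stood in more than 1 of these 3 lists.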

How the data were processed

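Per the labels' protocols, RNA was isolated by PicoPure and libraries were made by SMART-Seq v4, a kit for very low input. The authors deposited RPKM in 1 table with a column per library. Since RPKM is relative to all mapped reads, a few abundant genes that change move all others. Tools named in the submitters' processing notes are TopHat2 2.1.0, Cufflinks 2.2.1, cutadapt 1.14 and bcl2fastq 2.18.0.12, and the build named is rn6. Neither annotation, multi-mapping nor strand handling is stated there. No rn6 annotation was used, so positions of the genes on that build are not analysed here, and the file's symbols were used since 0 of 47357 rows of the RefSeq gene table matched its identifiers.

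From the deposited RPKM, log2(RPKM + 1) was computed, and the 14865 genes that reached 1 RPKM in 2 or more libraries entered linear models in limma 3.58.1 (R 4.3.3, moderated variance with a mean trend). The 8 groups joined male and female epiblast and kept E15.5 PGC apart by sex (10 residual degrees of freedom), so that all libraries shared 1 estimate of the spread. The p-values were adjusted over all tested genes of a comparison (Benjamini-Hochberg), at a threshold of 0.05, and PGC against epiblast compares unweighted means of group means. The script was tested on simulated data. Depth is unknown in reads. The estimate relative to 1 library assumes that low genes with the same few reads share a ratio.

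Named genes were the 3 factors, the 5 genes of highest Pearson r with each (mean of at least 5 RPKM in some group), and from each list the 2 largest rises and falls with such a mean and the most abundant gene that did not pass, with list members that changed in later steps for the identity and target lists. Kctd1, Mecom, Prdm6, Tfap2a, Tfap2b, Tfap2d, Tfap2e and single cell type markers lie outside this rule and were named after their values were seen. The members and all lists were chosen with earlier results of these data known. Alternatives were other pseudocounts, filters, scalings, variance models, subsets of libraries and a replicate block. Replicate numbers were not used to pair libraries in the main fit. Over all tested genes, same-numbered libraries of PGC groups did not deviate together in any of 15 pairs of groups. This check left out epiblast and cannot exclude a pairing that affects some genes. Promoter sequence is from RefSeq (GRCr8). Plots used matplotlib 3.10.9 (Python 3.11.15).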

Additional observations from a re-analysis of the deposited data

Results flagged for a closer look

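Each of the 3 factors was scanned for a library far from the rest in 2 sets, the 6 epiblast libraries and the 4 PGC libraries of E15.5 with the sexes pooled. Days with 2 PGC libraries were not scanned. Chance gives such a library in about 1 in 20 sets, but not in sets that are mostly at 0, as the epiblast ones are, so nothing is read from their number. Of the 6 sets, 2 held one, both in epiblast. Prdm14 had 1.11 RPKM in E7.25 epiblast male replicate 1 and was listed at 0 in the other 5 epiblast libraries. Tfap2c had 0.639 RPKM in E7.25 epiblast male replicate 2, while the other 5 epiblast libraries had at most 0.0774 RPKM. The libraries are different ones, and both values lie under those of almost all PGC libraries, the exception being Prdm14 in E10.5 PGC replicate 1, with 0.299 RPKM.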

How the results depend on the processing

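The calls of all 3 factors in PGC against epiblast held in each of 28 alternatives, with log2 changes of 5.83 to 10.8 for Tfap2c, 2.46 to 7.16 for Prdm1 and 1.36 to 5.57 for Prdm14. Over all comparisons, 773 of 804 values of the factors kept direction and call, and 233 of 268 counts lay within 1.5 times. The fit of PGC and epiblast as 2 groups and the fit without E9.5 were chosen after seeing the data.

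With limma fitted to the compared groups alone, the genes that passed numbered 9 for E7.75 against E7.25 epiblast (main value 40), 2204 for E9.5 against E7.75, 0 for E10.5 against E9.5, 56 for E11.5 against E10.5, 0 for E12.5 against E11.5, 333 for E15.5 males and 1006 for E15.5 females against E12.5, and 0 for females against males. These counts come from fewer samples, and where they were 0, the genes with an unadjusted p under 0.05 numbered 3544, 3707 and 3183 in that order. Without the E10.5 and E11.5 libraries, 12 genes passed for E7.75 against E7.25.

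With a pseudocount of 5 RPKM, Tfap2c passed at E10.5 against E9.5 (0.51), in E15.5 males (-0.72) and in E15.5 females (-0.54) against E12.5, and Prdm1 passed in E15.5 females (-0.74) and over the 6 PGC groups (adjusted p = 0.0414). Tfap2c also passed at E10.5 with upper quartile scaling (0.72), and Prdm1 in E15.5 females with no mean trend (-0.86). Over the 6 PGC groups Tfap2c did not pass with a pseudocount of 0.1 (adjusted p = 0.727), with quantile normalization (0.0504) or without E10.5 and E11.5 (0.112). The cause was not tested. With a replicate block Tfap2c in E15.5 males against E12.5 was -0.74 (adjusted p = 0.0494), and no other call of the factors changed. The block rests on shared numbers, and correlations of deviations between PGC groups were -0.13 to 0.06.

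Leaving out each library in turn gave counts of 16 to 50 for E7.75 against E7.25, 353 to 1360 for E11.5 against E10.5, 251 to 1305 for E12.5 against E11.5, 525 to 1507 for E15.5 males and 1475 to 3033 for E15.5 females against E12.5, and 672 to 1679 for females against males. The log2 differences ranged as follows. Prdm14 was 2.22 to 3.65 at E9.5 against E7.75, -2.55 to 0.72 at E10.5, -0.32 to 2.95 at E11.5 and -0.24 to 0.16 in females against males. Prdm1 was -0.00066 to 0.52 at E11.5 and -1.24 to -0.47 in E15.5 females against E12.5. Tfap2c was -0.31 to 0.047 at E7.75 against E7.25, 0.28 to 0.76 at E10.5, -0.81 to -0.66 in E15.5 males and -0.60 to -0.49 in E15.5 females against E12.5. In the last 3 it passed without E7.25 male replicate 2 (adjusted p = 0.0232, 0.0119 and 0.0293), a library outside those comparisons that enters the shared spread. In E15.5 males against E12.5 it also passed without E7.25 male replicate 1 (adjusted p = 0.0461), E7.25 female replicate 1 (0.0474), E9.5 replicate 1 (0.0374) and E9.5 replicate 2 (0.0376), likewise outside that comparison, and at E10.5 against E9.5 without E9.5 replicate 2 (0.0409). The adjusted p over the 6 PGC groups was 0.0401 to 0.264 for Prdm1, 0.00421 to 0.595 for Prdm14 and 0.00107 to 0.0351 for Tfap2c. A lone library left in a group is assumed to vary like the others. The table holds no read counts, and relative depth was low at E10.5 and E11.5. The part of depth in the values of Prdm14 there was not tested.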
